A study of Homo sapiens with 12 samples.

Results

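Expression of 10 tubulin isotype genes was followed in 3 human renal cell carcinoma lines in which miR-29 activity was raised or lowered. The genes were 4 α-tubulin genes (TUBA1A, TUBA1B, TUBA1C and TUBA4A) and 6 β-tubulin genes (TUBB, TUBB2A, TUBB2B, TUBB3, TUBB4B and TUBB6), found by symbol among the 58051 genes of the count tables. The set was chosen by the measured change of tubulin genes in these same libraries, above all the fall of TUBA1A with the mimic in A-498. The values of A-498 and 786-O are therefore given as a description, without a test of any of the 10 genes. The ACHN libraries belong to the same data, whose earlier results were known when the genes were chosen. Calls and p-values of the 10 genes there describe the fit and are not independent support for any of them. The groups were 786-O cells with a control mimic or a miR-29 mimic (1 library each), A-498 cells with a control mimic or a miR-29 mimic (2 each), and ACHN cells with a control inhibitor or a miR-29 inhibitor (3 each). A mimic is a synthetic RNA that adds activity of a microRNA, and an inhibitor is an oligonucleotide that blocks it. All cells came from purchased lines, were reverse-transfected at 10 nM and were lysed for RNA after 48 h, and neither the mimic nor the inhibitor was itself measured in these libraries. The study's methods call the A-498 and ACHN replicates biological, without saying how their cultures were kept apart, and errors and p-values cover the spread between these libraries only.

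Microtubules are hollow filaments built from heterodimers of 1 α-tubulin and 1 β-tubulin protein, and they carry cargo, shape the cell and form the mitotic spindle. The isotypes are encoded by separate genes whose proteins are very alike and differ mostly in their tails, and cells use them in different proportions. TUBA1B, TUBA1C, TUBB and TUBB4B are widely expressed in dividing cells, TUBA1A, TUBB2A, TUBB2B and TUBB3 are best known from neurons, TUBA4A is known from platelets and muscle, and TUBB6 is a divergent β isotype. Cells also tune their tubulin mRNAs to the pool of free tubulin, through the ribosome-associated factor TTC5. miR-29a, miR-29b and miR-29c share 1 seed, the stretch that pairs with target mRNAs, and collagen and basement membrane genes are their best known targets.

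The seed is shown because every site below is read against it. Mature sequences are from RefSeq (GRCh38.p14), with bases 2 to 8 in capitals.
hsa-miR-29a-3p: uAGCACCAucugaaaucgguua
hsa-miR-29b-3p: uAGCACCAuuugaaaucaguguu
hsa-miR-29c-3p: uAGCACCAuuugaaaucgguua
Exact matches to the seed, TGGTGCT on the mRNA strand, were sought in the canonical GENCODE v44 transcript of each tubulin gene. Among the 10 genes, a match in the 3′ UTR was found in the near-identical pair TUBB2A (chr6:3153781-3153787, minus strand, starting at base 76 of the 3′ UTR) and TUBB2B (chr6:3224619-3224625, minus strand, base 126). Across 19228 genes with a 3′ UTR, 2683 (14.0%) held this word there. TUBA4A (chr2:219252060-219252066, minus strand) and TUBB4B (chr9:137242503-137242509, plus strand) held it in the coding sequence, as did 4215 genes (21.9%). The sites are printed with their upstream bases, with the matching letters in capitals.
TUBB2A 3′ UTR: tctacttgtaaactaTGGTGCTc
TUBB2B 3′ UTR: tgtgcgctgggtctcTGGTGCTc
TUBA4A coding: cttcttctgtgaaacTGGTGCTg
TUBB4B coding: cgttttcggtcagagTGGTGCTg
A match is a description of the letters and was not tested as a site.

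Positions are given on GRCh38, from GENCODE v44. TUBA1B (ENSG00000123416, chr12:49127782-49131397, minus strand), TUBA1A (ENSG00000167552, chr12:49184686-49189080, minus strand) and TUBA1C (ENSG00000167553, chr12:49188736-49274600, plus strand) form a cluster, in which TUBA1A and TUBA1C overlap by 345 bases on opposite strands. TUBB2A (ENSG00000137267, chr6:3153497-3157544) and TUBB2B (ENSG00000137285, chr6:3223324-3231730) are neighbours on the minus strand, and TUBB (ENSG00000196230, chr6:30717435-30725538, plus strand) lies elsewhere on that chromosome. TUBA4A (ENSG00000127824) is at chr2:219249710-219277902 on the minus strand. TUBB3 (ENSG00000258947) is at chr16:89921392-89938761, TUBB4B (ENSG00000188229) at chr9:137241287-137243707 and TUBB6 (ENSG00000176014) at chr18:12307669-12344320, all on the plus strand.

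Near-identical sequence limits what a count per gene can tell for several of these genes. The coding sequences of TUBA1A and TUBA1B were 97.2% identical, and those of TUBB2A and TUBB2B 98.1%. A scan of each canonical transcript in windows of 100 bases, in which a window counted as shared if it occurred unchanged in a transcript of another gene or elsewhere in the genome, gave a shared part of 21.2% for TUBA1A, 37.2% for TUBA1B and 12.3% for TUBA1C. The shared part was 55.6% for TUBB2A and 48.7% for TUBB2B. It was 5.42% for TUBB, 3.01% for TUBB4B, 1.95% for TUBA4A and 0 for TUBB6. TUBB3 stood apart at 92.5%, because the annotated read-through gene ENSG00000198211 covers it on the same strand. Outside TUBB3, no window lying in a 3′ UTR was shared, so reads from these 3′ UTRs can be placed on 1 gene. Reads that map equally well to several copies get a low alignment quality and were not counted, and reads of low alignment quality made up 16.7% to 25.8% of all reads per library. Reads that lie in overlapping genes on 1 strand, as at TUBB3, count as ambiguous. Whether this lowered the counts of TUBB2A, TUBB2B and TUBB3 was not tested.

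**Figure D1:**
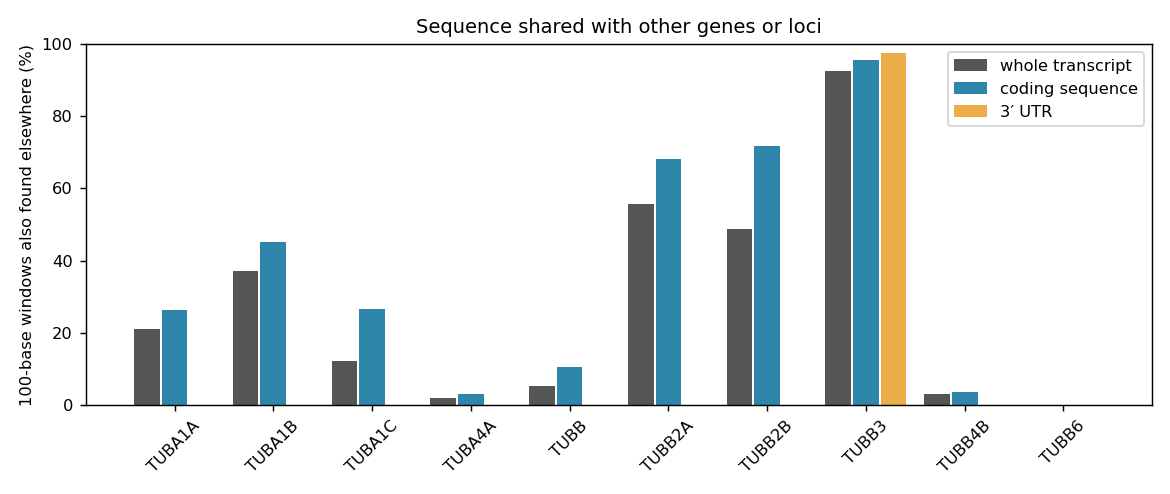
Percent of 100-base windows of each canonical transcript that also occur unchanged in another gene or locus (vertical axis), for the whole transcript, the coding sequence and the 3′ UTR (bars, 1 value per gene, no replicates). TUBB3 reaches 92.5% and TUBB2A 55.6% over the whole transcript, and only TUBB3 has shared 3′ UTR windows.

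Libraries held 39919554 to 70027392 reads in genes, and all 10 genes passed the filter on low counts in each line. Ambiguous reads made up 3.57% to 9.06% of all reads. In ACHN this share was 7.01% to 7.52% in the control libraries and 7.49% to 9.06% in the inhibitor libraries, and its part in the tubulin counts was not tested. The labels were checked on 4 known miR-29 targets, COL4A1, COL4A2, SPARC and LAMC1. All 4 were at least 2-fold lower with the mimic in 786-O, all 4 were lower in A-498, and all 4 were higher with the inhibitor in ACHN. The kidney lineage factor PAX8 and the epithelial keratins KRT8 and KRT18 were present in all lines, at control means from 74.7 CPM (counts scaled to library size) upwards. Of the other 5 renal epithelial markers some were near absent, with EPCAM at 0.251 CPM in the A-498 controls against 51.0 CPM in ACHN, and CDH16 at 3.21 to 4.34 CPM across the lines. The 4 leukocyte markers together did not exceed 0.666 CPM in any library.

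Levels between genes were compared per kilobase of the union of annotated exons (CPM per kb). In the 3 ACHN control libraries TUBA1B was highest at 992 ± 24.6 CPM per kb (SD, n = 3), followed by TUBB at 410 ± 10.8, TUBB4B at 320 ± 12.1 and TUBA1C at 237 ± 2.05. TUBB6 (57.6 ± 1.74), TUBA1A (range 43.3 to 45.6) and TUBA4A (26.7 ± 0.515) formed a middle range, and TUBB2B (10.2 ± 1.14), TUBB2A (7.74 ± 0.421) and TUBB3 (0.647 ± 0.0834) were lowest. The ranges of neighbours in this order did not overlap in ACHN or in A-498. The low end depends on the length used. With each whole count divided by the unique windows of the canonical transcript, TUBB3 made up 2.79% of the β sum and TUBB2A 2.32% in the ACHN controls. In A-498 these shares were 1.55% and 1.45%, so that TUBB3 ranked above TUBB2A. TUBB3 has 120 such windows but 7421 bases of union exon, where its reads can also be counted. That order is therefore not read as a level. In the A-498 controls the order at the top was TUBA1B at 540 ± 2.09 CPM per kb (SD, n = 2), TUBB at 423 ± 8.19, TUBB4B at 245 ± 14.2, TUBA1C at 172 ± 5.26 and TUBA1A at 149 ± 8.45. In the 786-O control library, where there is no replicate, TUBB led at 666 CPM per kb, TUBB4B was at 379 and TUBA1B at 285, and TUBA1A was the seventh of the 10. Levels between lines were not tested.

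The 3 comparisons gave different pictures for the family as a whole. 786-O and A-498 received the mimic and ACHN the inhibitor, so line and treatment cannot be told apart between them. In A-498, 9 of 10 tubulin genes had both mimic libraries below both controls, as had 37.3% of all genes, and none had them above (37.2% of all genes). The median log2 fold change was -0.52 against 0.0045 for all genes. The genes were chosen on these data, so nothing is read from this count or those of 786-O and ACHN below. In 786-O, 3 of 10 were at least 2-fold lower and none higher, where 8.96% of all genes were at least 2-fold lower and 6.73% higher, and the median log2 ratio was -0.42 against -0.0060. In ACHN with the inhibitor, 4 of 10 rose (TUBA1A, TUBA4A, TUBB2A and TUBB6), with 17.3% of all tested genes higher, and 2 fell (TUBA1B and TUBA1C), with 14.4% lower. The same 6 genes were those whose groups did not overlap in ACHN, which held for 22.8% of all genes upwards and 20.8% downwards. The median over the 10 genes there was -0.04, against 0.0038 for all genes. A log2 fold change is treated minus control throughout, and calls in ACHN are from the quasi-likelihood test of edgeR with Benjamini-Hochberg adjustment over all 17904 genes tested.

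**Figure D2:**
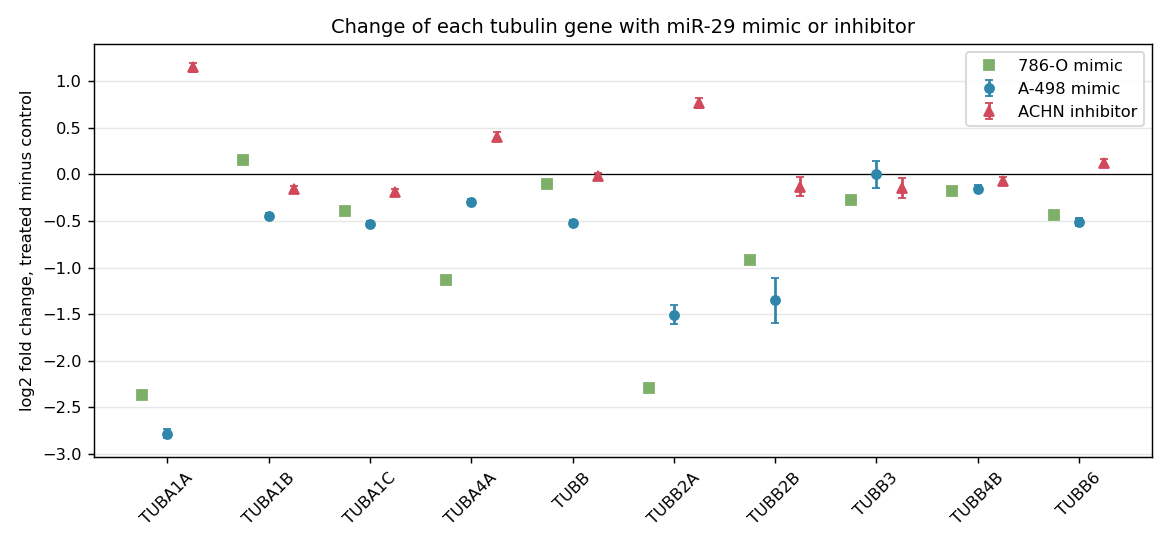
Log2 fold change (treated minus control, vertical axis) of each tubulin gene in 786-O (squares, 1 library per group, no error), A-498 (circles, 2 per group) and ACHN (triangles, 3 per group), with bars of 1 standard error from the edgeR fit. TUBA1A and TUBB2A lie lowest in both mimic lines and highest in ACHN with the inhibitor, at 1.15 and 0.77.

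TUBA1A, an α-tubulin best known from developing neurons, held no full seed match in its canonical transcript. It had the log2 change of greatest size among the 10 genes in each line, with TUBB2A close to it in 786-O. In A-498 its level was 546 and 591 CPM in the control libraries and 85.2 and 79.7 CPM in the mimic libraries. Both mimic libraries lay far below both controls, a log2 fold change of -2.79 ± 0.0483 (SE), the 15th lowest of 19676 genes. In 786-O it was 49.9 CPM with the control mimic (2221 counts) and 9.65 CPM with the miR-29 mimic (432 counts), a log2 ratio of -2.36, with a 95% counting interval of the unmoderated ratio from -2.52 to -2.22 that covers counting error only. In ACHN it was 166, 165 and 174 CPM in the controls and 347, 383 and 391 CPM with the inhibitor. Every inhibitor library was above every control, by 1.15 ± 0.0474 on the log2 scale (SE, edgeR adjusted p = 2.83e-12), the 106th highest of 17904 genes. The gene was chosen on these data, so this p-value describes the fit only.

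TUBB2A, a β-tubulin that is also abundant in neurons and that carries a full seed match in its 3′ UTR (shown above), moved the same way at a much lower level. In ACHN it was 23.8, 21.3 and 22.4 CPM in the controls and 37.6, 40.3 and 37.2 CPM with the inhibitor. The groups did not overlap, at a difference of 0.77 ± 0.0549 on the log2 scale (SE, edgeR adjusted p = 6.16e-09). In A-498 it was 11.9 and 12.2 CPM in the controls and 3.84 and 4.67 CPM with the mimic (log2 fold change -1.50 ± 0.0993), and in 786-O it was 19.9 CPM and 4.02 CPM (log2 ratio -2.29). All mimic libraries were thus below their controls.

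TUBB2B, the close copy of TUBB2A, has the same 7 matching bases in its 3′ UTR, and its change did not pass the test in ACHN. Its ACHN levels were 42.0, 37.6 and 47.1 CPM in the controls and 29.7, 43.6 and 42.5 CPM with the inhibitor. These ranges overlapped, and the log2 fold change of -0.13 ± 0.103 (SE) did not pass the test (edgeR adjusted p = 0.370). The ratio of TUBB2A to TUBB2B counts, which sets the pair against each other within a library, was 56.6%, 56.7% and 47.5% in the ACHN controls and 127%, 92.5% and 87.6% with the inhibitor. The ratio was higher in all inhibitor libraries, by 0.92 on the log2 scale, with an exact two-sided permutation p of 0.1, the smallest that 3 against 3 libraries allow (adjusted p = 0.1 over 2 gene pairs). In A-498 and 786-O TUBB2B was near the limit of measurement, with 60 and 67 counts in the A-498 controls against 32 and 21 with the mimic, and 30 against 15 counts in 786-O.

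TUBA4A, an α isotype with a seed match in its coding sequence, was 96.9, 98.1 and 101 CPM in the ACHN controls and 132, 134 and 125 CPM with the inhibitor. All inhibitor libraries were higher, by 0.40 ± 0.0465 on the log2 scale (SE, edgeR adjusted p = 2.51e-06). In 786-O it was 203 CPM in the control and 92.0 CPM with the mimic, the third gene past 2-fold. In A-498 the groups also lay apart, at 392 and 383 CPM against 313 and 319 CPM, but the log2 fold change was smaller, at -0.29 ± 0.0352.

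TUBB6 was 228, 220 and 234 CPM in the ACHN controls and 242, 252 and 248 CPM with the inhibitor. The groups were apart by a narrow margin (log2 fold change 0.12 ± 0.0412 SE, edgeR adjusted p = 0.0279), and the call was lost on leaving out control replicate 1 or 2 or inhibitor replicate 1 or 3, with adjusted p from 0.0532 to 0.180. With the mimic it was lower in A-498 (161 and 151 CPM against 109 and 110 CPM) and in 786-O (224 CPM against 165 CPM). TUBB6 shares no window with another gene on its own strand.

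None of the abundant, widely expressed isotypes was called higher with the inhibitor. TUBA1B was 3568, 3448 and 3619 CPM in the ACHN controls and 3173, 3220 and 3165 CPM with the inhibitor, and all inhibitor libraries were lower (log2 fold change -0.15 ± 0.0275 SE, edgeR adjusted p = 0.000274). TUBA1C was 1060, 1044 and 1059 CPM against 927, 929 and 918 CPM, again with no overlap (-0.19 ± 0.0310 SE, edgeR adjusted p = 0.000116). The main β-tubulin TUBB overlapped between the groups, at 1638 to 1720 CPM in the controls and 1634 to 1678 CPM with the inhibitor (edgeR adjusted p = 0.709). TUBB4B, which like TUBA4A holds a seed match in its coding sequence, also overlapped, at 628 to 677 CPM and 602 to 643 CPM (edgeR adjusted p = 0.204).

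With the mimic these isotypes were lower in A-498 by less than TUBA1A. TUBA1B was 1937 and 1926 CPM in the A-498 controls and 1432 and 1400 CPM with the mimic, a log2 fold change of -0.45. TUBA1C and TUBB gave -0.53 and -0.52, and TUBB4B gave -0.15. In 786-O TUBA1B was the 1 tubulin gene that was higher with the mimic, at 1134 CPM against 1019 CPM, while TUBB, TUBB4B and TUBA1C had log2 ratios of -0.10, -0.18 and -0.40. TUBB3, a neuronal β isotype, had 61 to 303 counts per library in all lines, with overlapping groups in A-498 and ACHN (ACHN log2 fold change -0.15 ± 0.108 SE, edgeR adjusted p = 0.335).

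**Figure D3:**
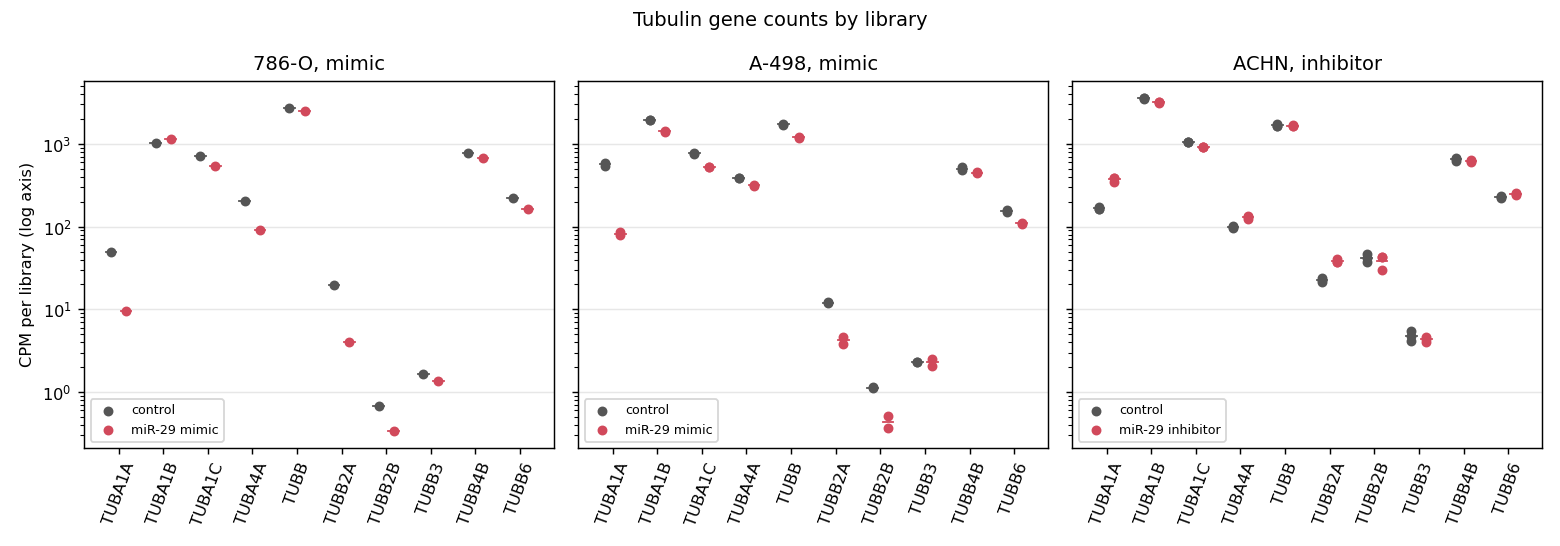
CPM of each tubulin gene in every library (log axis), control in grey and treated in red, with short lines at the group means, in 786-O (1 library per group), A-498 (2 per group) and ACHN (3 per group). TUBA1A falls from 546 and 591 CPM to 85.2 and 79.7 CPM in A-498 and rises from 165 to 174 CPM to 347 to 391 CPM in ACHN.

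Summed over the isotypes, the changes were smaller than those of TUBA1A. The 4 α-tubulin genes together were 3659 and 3652 CPM in the A-498 controls and 2361 and 2331 CPM with the mimic, a change of -35.8%, and the 6 β-tubulin genes changed by -26.3%. Without TUBA1A the α sum in A-498 still changed by -26.7%. In 786-O the α sum changed by -10.4% and the β sum by -9.38%. In ACHN the α sum was 4891, 4755 and 4953 CPM in the controls and 4580, 4667 and 4598 CPM with the inhibitor, so it was lower in all inhibitor libraries although TUBA1A alone was 2.22-fold higher (exact two-sided permutation p = 0.1, the smallest possible, adjusted p = 0.2 over 6 sums). The β sum in ACHN overlapped between the groups (exact permutation p = 0.7). With TUBA1A, TUBA1B and TUBA1C counted as 1 gene, so that reads placed on the wrong copy do not matter, the ACHN fit gave -0.09 ± 0.0259 (SE, edgeR adjusted p = 0.0133), and TUBB2A with TUBB2B gave 0.25 ± 0.0695 (edgeR adjusted p = 0.00977). The summed CPM of TUBB2A and TUBB2B overlapped between the groups, at 59.0 to 69.5 CPM and 67.3 to 83.9 CPM, and did not pass the exact permutation test (p = 0.2, adjusted p = 0.24 over 6 sums).

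Per kilobase of exon, TUBA1A made up 15.4% ± 0.883 (SD, n = 2) of the α sum in the A-498 controls and 3.46% ± 0.130 with the mimic, 2.55% and 0.542% in 786-O, and 3.39% ± 0.0642 (SD, n = 3) in the ACHN controls against 7.93% ± 0.458 with the inhibitor. TUBA1B took up 76.3% ± 0.268 of the α sum in the ACHN controls and 72.4% ± 0.248 with the inhibitor. Within a library, the ratio of TUBA1A to TUBA1B counts was 4.64%, 4.80% and 4.81% in the ACHN controls and 10.9%, 11.9% and 12.3% with the inhibitor (exact permutation p = 0.1, adjusted p = 0.1 over 2 gene pairs). In the β family of ACHN, TUBB made up 50.9% ± 0.432 of the β sum in the controls and 50.9% ± 0.645 with the inhibitor, and TUBB2A 0.960% ± 0.0516 and 1.66% ± 0.0425.

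**Figure D4:**
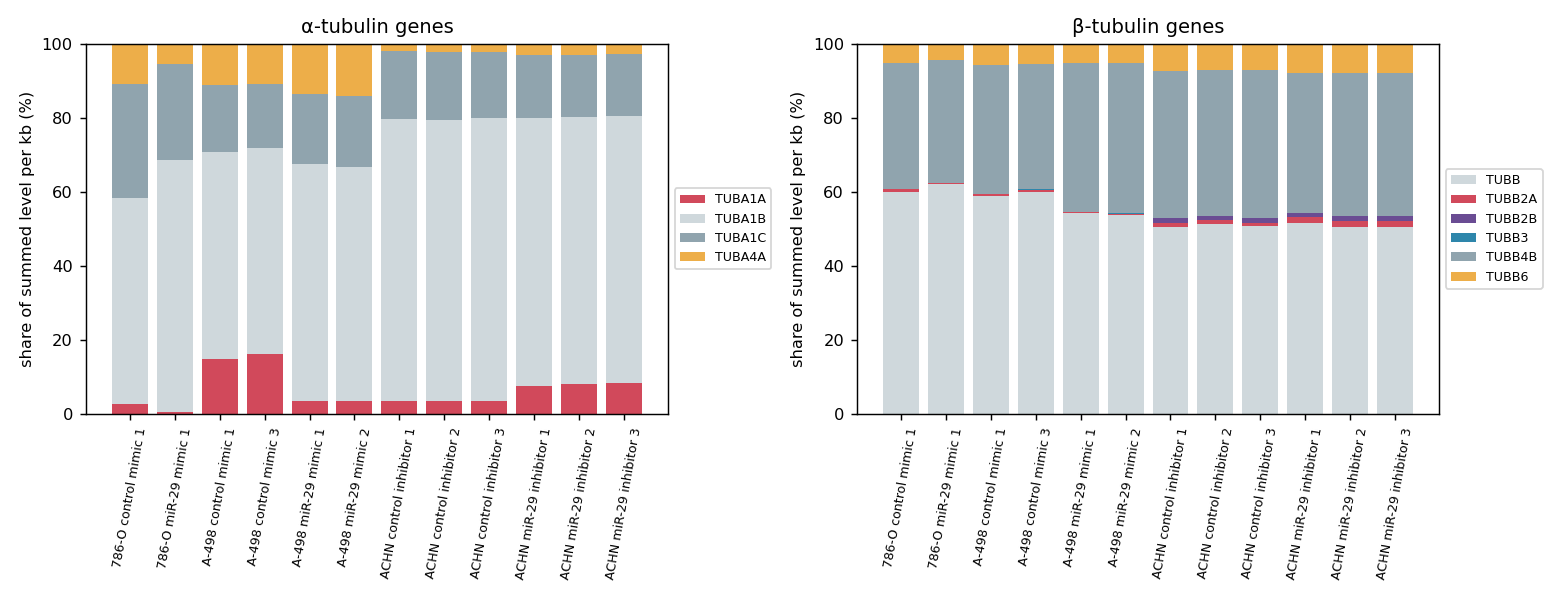
Share of each gene in the summed level per kilobase of exon (vertical axis, %) of the α-tubulin (left) and β-tubulin (right) genes, with 1 stacked bar per library. The TUBA1A segment shrinks from 15.4% to 3.46% on average with the mimic in A-498 and grows from 3.39% to 7.93% with the inhibitor in ACHN.

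Genes whose change across all libraries was most like that of TUBA1A were RCC2, PEDS1, P3H1, OSTC and POMK, with Pearson r from 0.998 to 0.999 over 12 libraries among 8744 genes compared. The r was taken on log2 CPM minus the mean of the same line's controls, and the points share their lines, treatments and library depth. RCC2, a regulator of chromosome segregation, had log2 fold changes of -1.89 (786-O), -2.11 (A-498) and 0.88 (ACHN), and P3H1, a collagen prolyl hydroxylase, had -1.19, -1.49 and 0.60. Within the family TUBB6 (r = 0.985) and TUBB2A (r = 0.960) were most like TUBA1A by r, and TUBB3 (r = -0.03) was least like it. An r leaves out the size of a change, which for TUBB6 was small, at -0.44 (786-O), -0.51 (A-498) and 0.12 (ACHN). TUBA1A, TUBA4A, TUBB2A and TUBB6 had negative values in both mimic comparisons and a positive one in ACHN, a pattern of signs held by 23.3% of the 15898 genes measured in all 3 lines.

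The genes that fold tubulin gave mixed directions. The CCT complex is the chaperonin in which newly made α- and β-tubulin fold, and all 8 of its subunits fell in ACHN with the inhibitor, where 14.4% of all genes did, with a median log2 fold change of -0.25. TCP1 fell by 0.38 ± 0.0396 (edgeR adjusted p = 6.58e-07) and CCT6A by 0.33 ± 0.0376 (edgeR adjusted p = 2.30e-06) on the log2 scale. In A-498 with the mimic, 2 CCT subunits were lower and 2 higher, near the 27.0% and 25.5% of all genes. The next counts are to be read against these shares in A-498, and against 14.4% lower and 17.3% higher in ACHN. Prefoldin, which hands tubulin chains to CCT, had 3 of 6 subunits lower in ACHN and 3 of 6 higher in A-498. Of 7 measured tubulin cofactor genes, 3 were lower and 1 higher in ACHN and 1 was lower and 2 higher in A-498. TBCEL, which is known to destabilise tubulin, was the lower gene of A-498 and the higher gene of ACHN, at -0.68 ± 0.0746 and 0.51 ± 0.0553 (edgeR adjusted p = 2.84e-06 and 1.08e-06), with a log2 ratio of -1.32 in 786-O, the signs seen for TUBA1A.

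Among genes that modify, cut or bind microtubules, single genes had the signs of TUBA1A and others the opposite signs. Of 18 tubulin modifying enzymes, 8 were lower and 2 higher in A-498, against 27.0% and 25.5% of all genes. In ACHN 2 were lower and 2 higher, against 14.4% and 17.3% of all genes. The tubulin deacetylase SIRT2 was lower in A-498 (-0.59 ± 0.0504, edgeR adjusted p = 2.02e-07) and higher in ACHN (0.77 ± 0.0590, edgeR adjusted p = 1.41e-08), and so was VASH1, which removes the last tyrosine of α-tubulin, at -1.32 ± 0.169 and 0.51 ± 0.144 (edgeR adjusted p = 1.32e-05 and 0.0107). TTLL12, of the tubulin ligase-like family, fell by 0.48 ± 0.0488 in ACHN (edgeR adjusted p = 5.62e-07). Of 7 severing genes, 4 were lower and 1 higher in A-498, and 1 was lower and 3 higher in ACHN. The katanin-like gene KATNAL1 fell by 1.29 ± 0.0460 in A-498 and rose by 0.17 ± 0.0545 in ACHN (edgeR adjusted p = 2.61e-11 and 0.0252). Its relative KATNAL2 went the other way, at 0.32 ± 0.108 in A-498 and -0.35 ± 0.110 in ACHN (edgeR adjusted p = 0.0246 and 0.0206). Of the microtubule-associated protein genes, 8 of 17 were lower and 2 higher in A-498, and 3 of 16 were lower and 1 higher in ACHN, the latter being the end-binding gene MAPRE2 (0.37 ± 0.0542, edgeR adjusted p = 3.29e-05), which was at -0.89 ± 0.0646 in A-498. MAP1B, a microtubule stabiliser, had the opposite signs, at 0.30 ± 0.0341 in A-498 and -0.31 ± 0.0392 in ACHN (edgeR adjusted p = 3.87e-06 and 7.76e-06).

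Of the γ-tubulin ring complex genes, which nucleate microtubules, 4 of 9 were lower in A-498 and 3 of 9 in ACHN, and none was higher in either. The shares of all genes that were called lower were 27.0% in A-498 and 14.4% in ACHN, and 25.5% and 17.3% were called higher, against which this and the next counts are to be read. Of other tubulin genes, 1 of 7 was lower and 3 were higher in A-498, and 1 of 5 was lower and 1 higher in ACHN. TUBD1, which encodes the centriolar δ-tubulin, was -1.11 ± 0.0818 in A-498 and 0.67 ± 0.0637 in ACHN (edgeR adjusted p = 4.83e-08 and 2.35e-07). The γ-tubulin gene TUBG1 had the opposite signs, at 0.31 ± 0.0574 and -0.20 ± 0.0548 (edgeR adjusted p = 0.000413 and 0.00849). The factor TTC5 of the autoregulation list was -0.36 ± 0.0797 in A-498 (edgeR adjusted p = 0.00176) and 0.09 ± 0.0425 in ACHN (edgeR adjusted p = 0.103). Genes of dividing cells moved as well. Of 10 mitosis markers 6 were lower and none higher in ACHN (summed level 3035 to 3058 CPM in the controls, 2669 to 2931 CPM with the inhibitor), and 4 were lower and 3 higher in A-498 (2565 to 2620 CPM against 2377 to 2418 CPM). In 786-O, where TUBA1B was higher with the mimic, 3 of 10 were at least 2-fold higher and none lower, with a summed level of 2025 CPM in the control and 3179 CPM with the mimic. Their part in the changes of TUBA1B, TUBA1C and the CCT genes was not tested. Of 8 renal epithelial markers 6 were higher in A-498 and 5 were lower in ACHN, with none in the other direction, and their part was not tested either. Of 6 neuronal markers, listed because several of these tubulins are known from neurons, 3 were measured in ACHN and none was called (summed level 78.6 to 82.4 CPM in the controls, 81.7 to 88.8 CPM with the inhibitor). ELAVL4, SYN1 and RBFOX3 were each at 0 in 4 or 5 of the 6 ACHN libraries. In A-498 1 of 3 measured neuronal markers was higher and none lower (251 to 258 CPM against 248 to 249 CPM). In 786-O the summed neuronal markers were 176 CPM in the control and 71.5 CPM with the mimic. Most of that sum was NEFL, a neurofilament gene, at 167 and 61.2 CPM, while SYT1 was higher, at 1.26 and 3.84 CPM. In A-498 NEFL was 251 CPM in the controls and 243 CPM with the mimic on average. Of the 4 markers measured in 786-O, 2 were at least 2-fold lower and 1 higher, and their part was not tested. Of all genes in 786-O, 8.96% were at least 2-fold lower and 6.73% higher. In bulk RNA a change in the number of cells of a kind and a change in RNA per cell cannot be told apart.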

How the data were processed

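RNA-seq was analysed in 12 libraries, grouped by their labels. Per the labels and the study's methods, stranded libraries were made after depletion of ribosomal RNA, and the authors aligned reads to GRCh38 with HISAT2 and deposited raw counts per Ensembl gene from HTSeq in strict intersection mode. Reads not assigned to 1 gene were 37.2% to 48.0% of all reads and were left out of library sizes. A symbol in GENCODE v44 was found for 98.1% of genes. The deposited DESeq2 tables hold the authors' fold changes and p-values and were not used.

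Counts were fitted in each line by itself with edgeR 4.0.16 in R 4.3.3 (TMM, filterByExpr, quasi-likelihood test, Benjamini-Hochberg threshold 0.05), after a check on simulated data. DESeq2 1.42.0 was an alternative. In 786-O, log2 ratios used a prior count of 2 and genes with at least 10 counts. Levels per kilobase used the union of GENCODE v44 exons. Sums and ratios in ACHN were compared by exact two-sided permutation. The coefficient of biological variation in the fits was 3.83% (A-498) and 5.25% (ACHN). Chi-square values per degree of freedom between replicate libraries were 3.60 to 11.0, above what counting error gives. The paper reports leaving out further A-498 samples of the mimic experiment because they may have been mislabelled, and those were not analysed here. The text names all 10 members, the 5 genes most like TUBA1A and, per pathway list, at most the 2 lowest and 2 highest called genes in A-498 or ACHN. Cell type markers and the known miR-29 targets were named outside that rule, to check labels or give levels. The members and lists were chosen with earlier results of these data known. Shorter sequence matches in tubulin genes are not reported here.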

Additional observations from a re-analysis of the deposited data

Results flagged for a closer look

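TUBA1B, the most abundant α-tubulin gene of A-498, moved in opposite directions with the mimic in the 2 mimic lines. In A-498 its log2 fold change was -0.45, with both mimic libraries below both controls, and in 786-O its log2 ratio was 0.15, from 1 library per group. The difference between the lines was not tested.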

How the results depend on the processing

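Calls of TUBA1A, TUBB2A, TUBA4A, TUBA1B and TUBA1C in ACHN kept their direction and stayed past the threshold under all 11 alternatives that kept the genes apart. TUBA1A ranged from 1.12 to 1.19 in them. Counting near-identical genes as 1 left 1 gene called lower in ACHN instead of 2, and 3 called higher instead of 4. The sum then replaces TUBA1A, TUBA1B and TUBA1C and is called lower, so the higher call of TUBA1A is no longer seen. With library size in place of TMM, the log2 ratios of the α and β sums were -0.13 and -0.12 in 786-O and -0.56 and -0.36 in A-498, and in A-498 TUBB3 turned to 0.076. That scaling moved the median of all A-498 genes to 0.08 and the share of calls that were lower from 51.4% to 41.3%. Leaving out 1 library turned small values: TUBB3 in A-498 ranged from -0.14 to 0.12 (without mimic replicate 1), TUBB in ACHN from -0.037 to 3.06e-05 (without control replicate 3), TUBB2B in ACHN from -0.23 to 0.019 (without inhibitor replicate 1), and the β sum in ACHN from -0.029 to 0.014 (without control replicate 3, and 0.0032 without inhibitor replicate 1). In ACHN, TUBB4B was called lower without inhibitor replicate 2 (-0.098, edgeR adjusted p = 0.0325), which made 3 genes lower in place of 2, and TUBB6 lost its call without 4 of the libraries, as given above. The cause was not tested. In ACHN the replicate numbers did not pair the libraries (correlation of same-numbered deviations 0.04, -0.05 and -0.0047), and with the number as a replicate block 2638 genes were lower and 3125 higher, against 2578 and 3102 without it, with the same tubulin calls. A-498 groups share 1 number, so no block could be fitted there. Lengths were also varied after seeing the data. Per kilobase of canonical transcript TUBA1A made up 17.1% of the α sum in the A-498 controls. With the whole count divided by unique windows TUBB3 made up 2.79% of the β sum in the ACHN controls in place of 0.0804%. Those windows leave out other exons of TUBB3, so the larger share is not read as a level. TUBB2B in the mimic lines and TUBB3 in all lines rest on few counts. For TUBB3 the part of the overlapping read-through gene in this was not tested.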
